A study of Mus musculus with 10 samples.

Results

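Cytosolic ribosomal protein genes were followed across 10 oligonucleotide arrays of mouse hippocampus, in mice with and without A-CREB and with and without kainate. The genes were taken by symbol in the array's annotation (Rpl or Rps followed by a digit, and Rplp0 to Rplp2, without S6 kinase genes and pseudogenes). Of 80 such names, 49 had a probe set naming no other gene, and for each of these genes the one with the highest mean was used. The mean of log2(signal + 22) had to exceed 6.47, which left 46 of the 13219 genes tested. Of these, 22 encode proteins of the large subunit or bear such a name, 22 carry small-subunit names and 2 (Rplp0 and Rplp2) belong to the stalk. Most are true ribosome subunits, but Rps19bp1 is not one (it encodes a protein that binds Rps19), and Rpl7l1, Rpl22l1, Rps27l and Rps4l are relatives of better known subunits.

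Ribosomal proteins and ribosomal RNA together form the large and small subunits that translate mRNA. The stalk of the large subunit, built on Rplp0, recruits the translation factors that hydrolyse GTP. The mRNAs of these proteins are among the most abundant of any cell, and many begin with a run of pyrimidines (the terminal oligopyrimidine, or TOP, tract) through which the mTOR kinase sets their translation. In neurons part of these mRNAs travels into dendrites and axons.

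The animals were 3 weeks old, and each array held total RNA of hippocampi pooled from 3 to 4 mice, so errors measure the spread between pools. A-CREB is a dominant-negative inhibitor of the transcription factor CREB, kainate is a glutamate receptor agonist that provokes seizures, and saline is its vehicle. The A-CREB mice (TetO-A-CREB-95 C57BL6 F1/J in the labels, a transgene behind a tetracycline-controlled promoter) formed 3 groups, given saline, 14 mg/kg kainate or 18 mg/kg kainate. The wild-type mice formed 2 groups, given 14 mg/kg kainate or saline, and none received 18 mg/kg. Each group had 2 arrays, numbered replicate 1 and replicate 2. The wild-type strain is given as C57BL6 F1/J on 1 array of each group and on the other the strain is not stated. In all, 20 A-CREB and 14 wild-type mice were used. The labels do not state what drives the transgene, how long after injection the tissue was taken or what the replicate numbers mark.

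The starts of these genes are shown first, because the TOP tract is the feature for which these mRNAs are best known. RefSeq's promoter windows (GRCm38.p6, 250 bases before to 50 after each annotated start) covered 40 of the 46 genes. A tract was scored as C followed by at least 4 further C or T, in a match beginning within 5 bases of an annotated start. The match nearest to the start was taken, also where further C or T came before it. It was found in 20 of the 40 genes (50%), against 21.2% of the 27025 genes with a window. A match beginning exactly at the start, whether or not C or T came before it, was found in 8 of 40 (20%), against 3.01% of all. The 8 are Rpl14, Rpl35, Rpl38, Rplp2, Rps10, Rps18, Rps27 and Rps6. The stretches from 10 bases before the start to 15 bases from it on are given below. They cover 4 of these 8, then 3 genes named in the kainate results. Last comes Rpl37, which had no scored match and differed between the replicate numbers. Each reads 5′ to 3′ on the strand of the gene, with the scored match in capitals.
Rps6, chr4:86857353-86857377, minus strand: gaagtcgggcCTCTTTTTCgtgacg
Rps27, chr3:90213634-90213658, minus strand: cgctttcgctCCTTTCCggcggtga
Rplp2, chr7:141447641-141447665, plus strand: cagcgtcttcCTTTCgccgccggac
Rpl14, chr9:120571507-120571531, plus strand: ggccctctctCTTCTCgctgagcgc
Rpl22l1, chr3:28805498-28805522, plus strand: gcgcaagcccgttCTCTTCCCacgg
Rpl12, chr2:32961702-32961726, plus strand: agcaggatccgtCTTTTCggctttc
Rpl7a, chr2:26910797-26910821, plus strand: ctcttctttCTTTCTCCagcagccg
Rpl37, chr15:5116603-5116627, plus strand: cctgggcggaagcttatccacagga
The scored match began at the start of Rps6, Rps27, Rplp2 and Rpl14, a few bases after it in Rpl22l1 and Rpl12, and just before it in Rpl7a. In each of these genes the base before the match is also C or T, so the run of pyrimidines begins earlier than the capitals. In Rplp2, Rpl14 and Rpl7a it begins several bases earlier. CCGGAAG, a core that ETS-family transcription factors recognise, was searched on both strands of the same windows. It was present in 19 of 40 genes (47.5%), against 9.93% of all genes. AAGATGG, a core of the YY1 site, was present in 7 (17.5%) against 7.28%, and TATAAA in 6 (15%) against 15.7%. The 60 bases before the start of 2 genes, which hold an ETS core, are given below with that core in capitals.
Rps10, chr17:27635245-27635304, minus strand: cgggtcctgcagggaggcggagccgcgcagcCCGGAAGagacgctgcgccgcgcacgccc
Rpl38, chr11:114668520-114668579, plus strand: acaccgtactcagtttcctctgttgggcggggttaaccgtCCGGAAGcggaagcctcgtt
These matches are letters in the reference sequence and say nothing of binding in this tissue. The starts were set against the array results only as a description, given at the end.

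All 7 neuronal and all 6 hippocampal marker genes looked for passed the filter on low signal, and none of the markers tested was at 0 on any array. Npas4 and Fos, transcription factors of the early response to neuronal activity, served as the check of the treatment. Npas4 was higher after 14 mg/kg kainate by 6.32 in A-CREB mice (log2, SE 0.27, limma adjusted p = 7.81e-06) and by 5.53 in wild type (SE 0.27, adjusted p = 2.83e-05). Fos was higher by 3.52 and by 3.26 (adjusted p = 0.000169 and 0.000237). The median signal of an array was 94.5 to 106 on replicate 1 and 134 to 152 on replicate 2, although the authors had scaled all arrays to 1 trimmed mean. In whole tissue, fewer cells of a type and less RNA per cell cannot be told apart. Differences below are log2 differences of group means of log2(signal + 22), with n = 2 arrays a group unless stated, and a positive value means higher in the group named first.

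Most of the members gave high signals: 34 of the 46 had a mean log2 above 12, and 887 other genes above that value (the other bright genes below) were set beside them as genes of like signal. Their values were steady. The SD of a member over the 10 arrays had a median of 0.18, which was also the median of the other bright genes, while that of all genes tested was 0.25. Rps18, a small-subunit protein of the head of the subunit, was the steadiest, with signals between 9126 and 10889.9 and an SD of 0.07, although its other tested probe sets were lower on replicate 2 (-0.46 and -0.55, replicate 2 minus 1). Rps27, also of the small subunit, had the widest spread, with signals from 185 to 757 and an SD of 0.69. The members nearest to the threshold were Rpl14, with signals of 166 to 299, and Rpl12, with signals of 169 to 294. Outside it were Rpl39l (7.14 to 83.5), Rpl3l (1.67 to 60.8) and Rps16 (0.997 to 7.69), a subunit gene whose own probe set lay below the filter. Rps27, Rpl12, Rpl14, Rps25 and Rpl39, named below, each rest on 1 probe set. Their mean log2 of 7.84 to 8.92 was far below that of most members. How well these dim probe sets read the main mRNA of each gene was not tested.

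After 14 mg/kg kainate, 0 of the 46 genes passed the test in either genotype, but most had a higher mean after kainate than after saline. In A-CREB mice 41 of the 46 were higher, with a median difference of 0.10, against -0.02 over all genes and 0.06 over the other bright genes. In wild-type mice 44 were higher, with a median of 0.21, against -0.05 over all genes and 0.10 over the other bright genes. Over all genes, 45.9% were higher in A-CREB and 41.7% in wild type, and of the other bright genes 67.1% and 69.6% were. The 34 members with a mean log2 above 12 were all higher in each genotype, with medians of 0.10 in A-CREB and 0.22 in wild type. Of the 12 other members 7 were higher in A-CREB and 10 in wild type, with medians of 0.05 and 0.20. Averaged over both genotypes (n = 4 arrays a side), 42 of 46 were higher, against 42.7% of all genes and 72.8% of the other bright genes. The median was 0.15, against -0.04 over all genes and 0.07 over the other bright genes. The test is limma's, two-sided, with Benjamini-Hochberg adjustment over the 13219 genes and a threshold of 0.05. It called 0.31% of all genes higher and 0% lower in A-CREB, 0.182% higher and 0% lower in wild type, and 0.681% higher and 0.0151% lower over both genotypes. With the replicate number as a block, 0 of the 46 genes were called in any of the 9 comparisons either. In that fit 1.1% of all genes were called higher and 0.166% lower after 14 mg/kg in A-CREB, 0.62% and 0.0908% in wild type, 1.91% and 0.968% over both genotypes, and 0.673% and 0.0227% after 18 mg/kg. Between the genotypes it called 0.0227% higher and 0.0151% lower after kainate and 0.0151% each way over both treatments, and 0% each way after saline, between the doses and for the difference of responses. At an unadjusted p under 0.05, 0 members were higher in A-CREB (2.62% of all genes), 1 in wild type (1.84%) and 3 over both genotypes (3.15%), and none was lower in any of the 3 (2.38%, 1.69% and 4.18%).

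**Figure D1:**
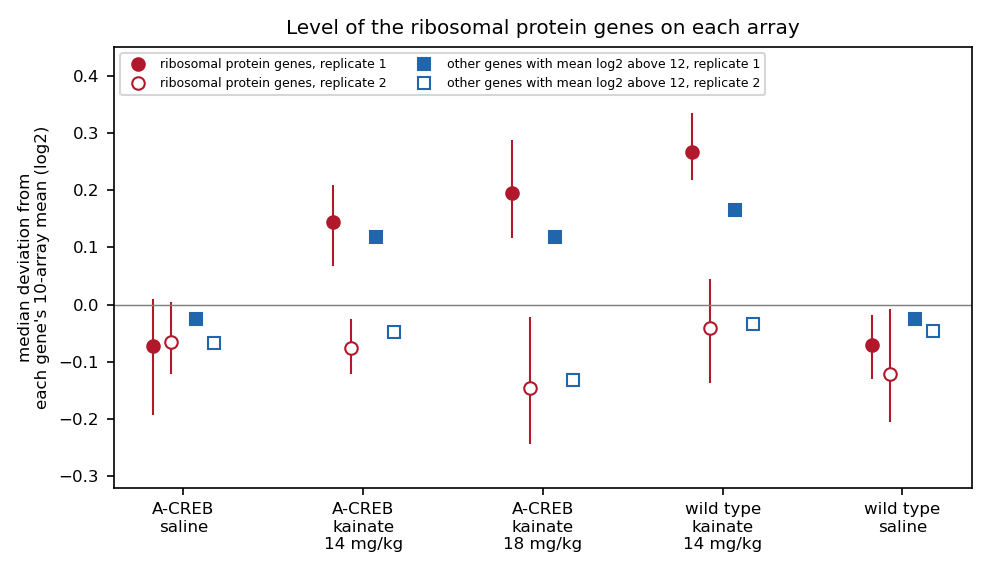
Median deviation of the 46 ribosomal protein genes (circles, bars from the 25th to the 75th percentile over genes) and of 887 other genes with mean log2 above 12 (squares) from each gene's own 10-array mean, in log2, by group. Filled marks are replicate 1 and open marks replicate 2. The circles of the replicate 1 arrays after kainate lie at 0.14 to 0.27, and those of the other 7 arrays lie below 0. The squares also lie above 0 on the former and below 0 on the latter.

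On the arrays themselves the genes moved together, and the kainate arrays of replicate 1 stood apart. Taken as deviations from each gene's 10-array mean, the median of the 46 genes in A-CREB mice was -0.07 and -0.06 after saline, 0.14 and -0.08 at 14 mg/kg and 0.20 and -0.15 at 18 mg/kg, in the order of replicates 1 and 2. In wild-type mice it was 0.27 and -0.04 after kainate, against -0.07 and -0.12 after saline. On the wild-type kainate array of replicate 1, 45 of the 46 genes were above their own mean, and on the A-CREB arrays of that number 44 were at 18 mg/kg and 38 at 14 mg/kg. On the other 7 arrays 8 to 16 were. The pooled SD of these array medians within groups was 0.16. The other bright genes followed the same pattern over the arrays. Their median on the kainate arrays of replicate 1 was 0.17 in wild type and, in A-CREB, 0.12 at 14 mg/kg and 0.12 at 18 mg/kg. On the other 7 arrays it was -0.13 to -0.03.

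The response was therefore computed within each replicate number. In A-CREB mice at 14 mg/kg the median difference of the 46 genes was 0.20 for replicate 1 and 0.01 for replicate 2. In wild type the values were 0.34 and 0.06. The 887 other bright genes moved the same way by less: 0.13 and -0.00 in A-CREB and 0.19 and 0.01 in wild type. Much of each median came with 1 array: without the A-CREB kainate array of replicate 1 it was -0.0009 in A-CREB, and without the wild-type kainate array of replicate 1 it was 0.04 in wild type. The 100 probe sets that name a ribosomal protein gene together with other genes had medians of 0.08 in A-CREB and 0.18 in wild type.

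**Figure D2:**
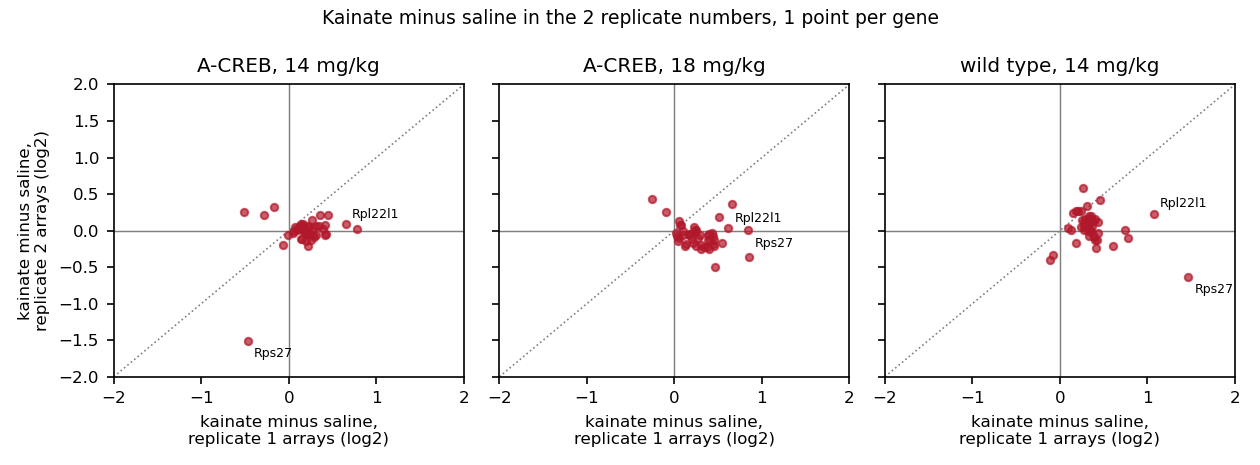
Kainate minus saline on the replicate 1 arrays (horizontal axis) and on the replicate 2 arrays (vertical axis), in log2, with 1 point for each of the 46 genes, for A-CREB at 14 mg/kg, A-CREB at 18 mg/kg and wild type at 14 mg/kg. The dotted line marks equal values. Most points lie right of 0, and in the A-CREB 18 mg/kg panel most also lie below 0.

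Markers of other cell types were read on the same arrays. The summed signal of 4 of 5 listed choroid plexus markers (Folr1, Kcnj13, Kl and Ttr) in A-CREB mice was 31546 and 25212 after saline, 38052 and 28714 at 14 mg/kg and 38259 and 23702 at 18 mg/kg. In wild type it was 42692 and 29014 after kainate, against 30474 and 27525 after saline. By the sum the 3 kainate arrays of replicate 1 were the highest, but by the median deviation of the 4 genes from their own 10-array means they were not. That median was 0.41 on the wild-type kainate array of replicate 1, 0.11 and 0.18 on the A-CREB arrays of that number at 14 and 18 mg/kg, and 0.43 on the wild-type saline array of replicate 2, the highest of the 10. The 4 of 5 oligodendrocyte markers tested (Cnp, Mag, Mbp and Mog) had sums of 51881 and 51118 in A-CREB after saline, 61174 and 52514 at 14 mg/kg and 60629 and 46356 at 18 mg/kg. In wild type these sums were 63315 and 53156 after kainate, against 53070.4 and 55988 after saline. Here too the 3 kainate arrays of replicate 1 had the highest sums, while the median deviation was 0.18 on the wild-type one, 0.16 and 0.08 on the A-CREB ones and 0.10 on the wild-type saline array of replicate 2. Other lists were at their lowest on the wild-type kainate array of replicate 1, where the ribosomal protein genes were highest. The median deviation on that array was -0.39 for the 5 astrocyte markers, -0.35 for the 5 microglial markers, -0.40 for 3 of 4 endothelial markers, -0.40 for the 5 markers of immature neurons and -0.68 for Alas2, the 1 of 3 blood markers tested. For the 7 neuronal markers it was 0.20, the highest of the 10 arrays. By the summed signal of these markers the A-CREB saline array of replicate 1 was the highest (81207.5, against 80804). The neuronal median deviation on that saline array was 0.17. Summed signals of the astrocyte markers were 20117 and 23494 in wild type after kainate, against 21884 and 25257 after saline, and 24735 to 29641 on the 6 A-CREB arrays. The sum of 4 of 6 striatal markers (Drd1, Drd2, Ppp1r1b and Rgs9) was 1171 and 5201 in wild type after kainate, against 1491 and 2530.2 after saline, so that the wild-type kainate array of replicate 2 stood out. It was 1037 to 1766 on the 6 A-CREB arrays. The part of these cell types in the results was not tested. Without the wild-type kainate array of replicate 2 the wild-type median of the 46 genes was 0.37.

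Averaged over both genotypes, the members with the smallest p after 14 mg/kg kainate were Rpl22l1, Rpl7a and Rpl12, all of the large subunit. Rpl22l1 (chr3:28805508-28807424, GRCm38.p6) is a close relative of Rpl22 that can take its place in the ribosome. Its signals in A-CREB mice, replicate 1 before replicate 2, were 5553 and 6635 after saline, 8719 and 7074 at 14 mg/kg and 8509 and 6782 at 18 mg/kg. In wild type they were 9802 and 7040.5 after kainate, against 4651 and 5986 after saline. Every kainate array was above every saline array, with the gap carried mainly by replicate 1. The difference at 14 mg/kg was 0.37 in A-CREB (SE 0.22, adjusted p = 0.9999) and 0.65 in wild type (SE 0.22, adjusted p = 0.9999, limma). Over both genotypes it was 0.51 (SE 0.16, 95% interval 0.16 to 0.86, limma adjusted p = 0.373). Within replicate 1 the difference over both genotypes was 0.86 and within replicate 2 it was 0.16. Rpl22 itself (chr4:152324436-152334082) had 8898 and 7031 in A-CREB mice after 14 mg/kg kainate, against 7984 and 6756 after saline, and 8838 and 7320.4 in wild type after kainate, against 7453 and 6047 after saline. The arrays of Rpl22 overlapped between treatments in both genotypes, and its difference over both was 0.18 (SE 0.13). This holds for the probe set that stands for Rpl22. Its other tested probe sets gave 0.12 and -0.20 over both genotypes. In A-CREB they gave -0.10 and -0.32, and in wild type 0.35 and -0.07.

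Rpl7a (chr2:26910685-26913312) lies in the body of the large subunit. Its signals in A-CREB mice were 12914 and 13653 after saline, 17239.7 and 14417 at 14 mg/kg and 17384 and 13313 at 18 mg/kg. In wild type they were 17287 and 15789 after kainate, against 13942 and 12558 after saline. At 14 mg/kg the arrays did not overlap between treatments in either genotype, while the 18 mg/kg array of replicate 2 lay among the saline arrays. The difference over both genotypes at 14 mg/kg was 0.28 (SE 0.12, limma adjusted p = 0.66). Rpl12 (chr2:32961712-32964045) sits at the base of the stalk, and its mean log2 of 8.01 was among the lowest of the members. Its signals in A-CREB mice were 182 and 233 after saline, 257 and 275 at 14 mg/kg and 269 and 268 at 18 mg/kg. In wild type they were 294 and 235 after kainate, against 209 and 169 after saline. All kainate arrays were again above all saline arrays. Its difference over both genotypes was 0.39 (SE 0.17, limma adjusted p = 0.681), and both replicate numbers gave it (0.45 and 0.32). Rpl10a came next by p, with a difference of 0.21 over both genotypes (SE 0.12).

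**Figure D3:**
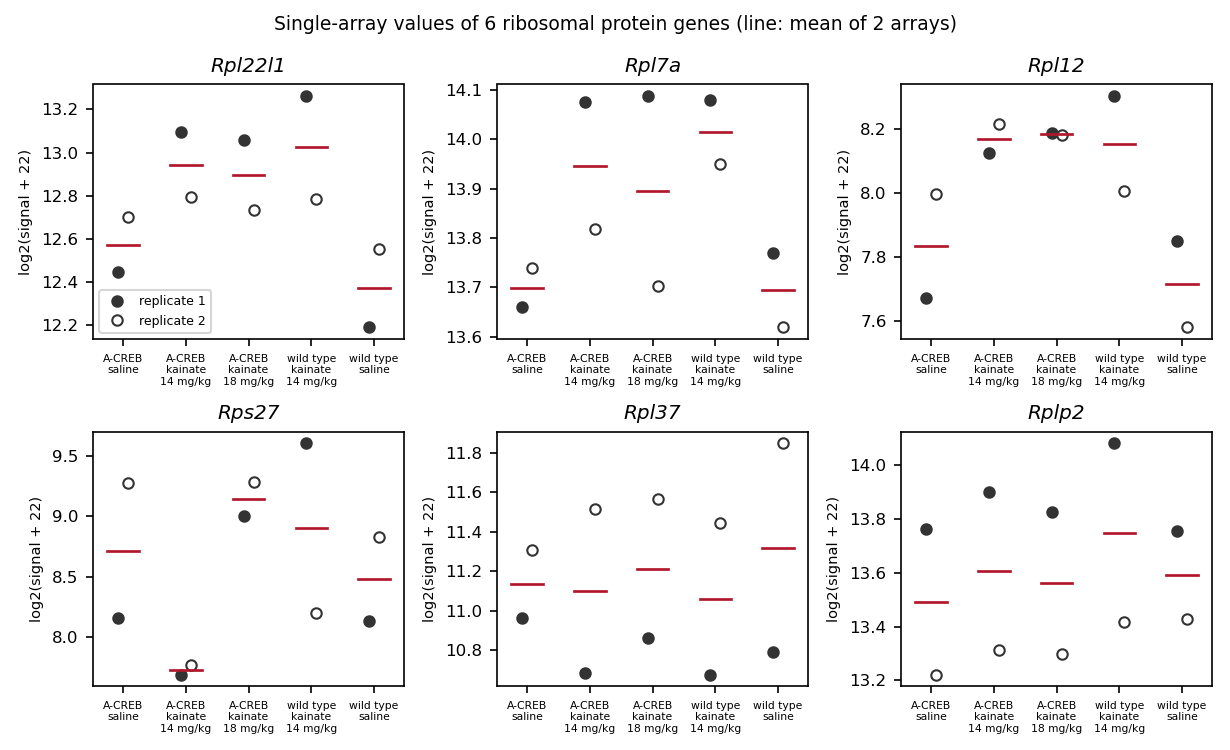
Log2(signal + 22) of 6 ribosomal protein genes on each array, by group, with filled circles for replicate 1, open circles for replicate 2 and a line at the mean of the 2 arrays. In Rpl22l1 and Rpl12 all kainate arrays lie above all saline arrays, in Rps27 the A-CREB 14 mg/kg arrays are the lowest, and in Rpl37 and Rplp2 the replicate numbers separate.

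The counts of genes whose arrays did not overlap differed between genotypes in size, and that difference was not tested. In A-CREB mice after 14 mg/kg both kainate arrays were above both saline arrays in 10 of the 46 genes (21.7%), against 13% of all genes and 20.5% of the other bright genes. In wild type this held for 21 (45.7%), against 10.2% and 23.6%. The lower direction held for 2 genes in A-CREB (Rps27 and Rpl7l1, 16% of all genes) and for 1 in wild type (Rpl7l1, 16.6%). Genes above in both genotypes were Rpl12, Rpl22l1, Rpl7a, Rps15 and Rps7, which is 5 of the 10 and 5 of the 21, and 3.8% of all genes did so. Over both genotypes together, all 4 kainate arrays were above all 4 saline arrays in 4 members (8.7%). This held for 2.66% of all genes and 6.99% of the other bright genes, so the members' share was near that of the latter. Rps15, a small-subunit protein of the head, had 11934 and 11471 in A-CREB mice after 14 mg/kg, against 10934 and 11079 after saline, and 14226 and 13218 in wild type after kainate, against 11780.3 and 12167 after saline. Rps7, of the small-subunit body, had 15102 and 14082 in A-CREB, against 14052 and 13713, and 16988 and 14132 in wild type, against 13125 and 13562, in the same order of treatments. For Rps7 in A-CREB the kainate array of replicate 2 lay only just above the saline arrays. Rpl7l1 had 919.9 and 886 in A-CREB after kainate, against 961 and 1019 after saline, and 992 and 887 in wild type after kainate, against 1049 and 1127 after saline. Its differences were -0.13 and -0.21 (SE 0.16 each), while another of its tested probe sets gave 0.07 in each genotype. Another tested probe set of Rps15 gave -0.03 in A-CREB.

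Large and small subunit genes gave like medians. After 14 mg/kg the median of the 22 large-subunit genes was 0.10 in A-CREB and 0.24 in wild type, and that of the 22 small-subunit genes was 0.09 and 0.18. The stalk gene Rplp0 (chr5:115559467-115563729) had 12367 and 10470.1 in A-CREB after 14 mg/kg, against 10647 and 10604 after saline, and 13380.5 and 11489 in wild type after kainate, against 10503 and 10301 after saline. Its difference was 0.10 in A-CREB and 0.25 in wild type (SE 0.17 each), and its arrays overlapped between treatments in A-CREB but not in wild type. Rplp2 (chr7:141447651-141451359), the acidic protein that carries the flexible tip of the stalk, had 15268 and 10162 in A-CREB after 14 mg/kg, against 13880.5 and 9528 after saline. In wild type it had 17316 and 10904 after kainate, against 13816 and 10995 after saline. Here the arrays of replicate 1 were above those of replicate 2 in every group, and the treatments overlapped. Rplp1, the partner of Rplp2, has no probe set of its own among the members.

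Rps6 (chr4:86854099-86857367), the small-subunit protein that S6 kinases phosphorylate when mTOR is active, had 674 and 807 in A-CREB after saline, 871 and 938 at 14 mg/kg and 894 and 783 at 18 mg/kg. In wild type it had 849 and 874 after kainate, against 797 and 851 after saline. The A-CREB arrays at 14 mg/kg did not overlap those after saline (difference 0.29, SE 0.17, limma adjusted p = 0.9999). Rpl13a, which outside the ribosome acts in the interferon-gamma translational control complex, differed by 0.10 in A-CREB and 0.23 in wild type (SE 0.20 each). Rpl11 (chr4:136049354-136053393), which can bind the p53 regulator Mdm2, had 9759 and 9900.0 in A-CREB after kainate, against 9169.9 and 9876 after saline, and 10612 and 9662 in wild type after kainate, against 8871 and 6437 after saline. The wild-type saline array of replicate 2 was the lowest of the 10, and the wild-type difference was 0.42 (SE 0.20, limma adjusted p = 0.9999). The X-linked Rps4x differed by 0.13 and 0.17 and its relative Rps4l by 0.21 and 0.23 in A-CREB and wild type. Rps27l, a relative of Rps27 known as a p53 target, differed by -0.03 and 0.01.

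The comparison at 18 mg/kg in A-CREB mice shares its saline arrays with that at 14 mg/kg. At 18 mg/kg 39 of 46 genes were higher than after saline, against 50.3% of all genes and 57.4% of the other bright genes, with a median difference of 0.08 (0.00 over all genes and 0.02 over the other bright genes). Within replicate 1 the median was 0.26, and within replicate 2 it was -0.07, against 0.14 and -0.08 over the other bright genes. Limma called 0 members (0.235% of all genes were called higher and 0% lower), and 0 had an unadjusted p under 0.05 (1.83% higher and 0.961% lower). The arrays did not overlap, kainate above saline, in 4 genes (Rpl12, Rpl14, Rpl22l1 and Rps15), or 8.7%, against 12.4% of all genes, and the other way in 0 (12.2%). Rpl14 (chr9:120571517-120574653), a large-subunit protein, had 182 and 166 after saline, 238 and 174 at 14 mg/kg and 299 and 219 at 18 mg/kg in A-CREB mice. Its 18 mg/kg difference was 0.51 (SE 0.28, limma adjusted p = 0.9999), and its mean log2 of 7.84 was the lowest of the members. Without the 18 mg/kg array of replicate 1 the median of the 46 genes was -0.08, and without that of replicate 2 it was 0.28.

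Between the doses, 18 minus 14 mg/kg, the median of the 46 genes was -0.02 and 17 of them were higher at 18 mg/kg, against 54.7% of all genes and 30% of the other bright genes, whose median was -0.03. The replicate numbers gave opposite medians, 0.07 with 36 higher in replicate 1 and -0.07 with 8 higher in replicate 2. Of all genes 54.7% were higher in replicate 1 and 53.9% in replicate 2. Of the other bright genes 51.6% and 26.3% were, with medians of 0.01 and -0.07, so these genes shared the fall in replicate 2. Limma called 0 of the members and 0% of all genes. At an unadjusted p under 0.05, 1 member was higher (0.386% of all genes) and 0 were lower (0.182%). This was Rps27 (chr3:90212667-90213648), a small-subunit protein with a zinc finger, which had 264 and 597 after saline, 185 and 196 at 14 mg/kg and 492 and 602 at 18 mg/kg in A-CREB mice. The wild-type arrays gave 757 and 273 after kainate, against 259.6 and 434 after saline. Both 14 mg/kg A-CREB arrays were below the other 8 arrays, while the 2 arrays of each other group except the 18 mg/kg one lay far apart. The dose difference of Rps27 was 1.42 (SE 0.47, limma adjusted p = 0.99997), and its difference from saline at 14 mg/kg was -0.99 (adjusted p = 0.9999). Arrays did not overlap in Rps27, Rpl35 and Rpl7l1, all higher at 18 mg/kg, which is 6.52% of the members, 11.3% of all genes and 1.35% of the other bright genes.

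No ribosomal protein gene passed the test between A-CREB and wild-type mice. After saline the median difference, A-CREB minus wild type, was 0.03, with 27 of 46 genes higher in A-CREB. Over all genes it was -0.03 with 44.5% higher, and over the other bright genes 0.002 with 50.4% higher. After 14 mg/kg kainate the median of the 46 genes was -0.07 with 8 higher. Over all genes it was -0.01 with 47.5% higher, and over the other bright genes -0.03 with 40.7% higher. Averaged over both treatments the median of the 46 genes was -0.04, against -0.02 over all genes and -0.01 over the other bright genes. Limma called 0 members in each of the 3 comparisons, and 0% of all genes. At an unadjusted p under 0.05 there was 1 member, Rps27 after kainate, with a difference of -1.18 (SE 0.47, limma adjusted p = 0.9999), where 0.613% of all genes were lower and 0.658% higher. After saline there were 0 (0.582% higher and 0.893% lower), and over both treatments 0 (1.01% in each direction). After saline, 8 genes had both A-CREB arrays above both wild-type arrays (8.76% of all genes) and 4 had them below (13.1%). After kainate 1 gene was above (Rps25, 9.99% of all genes) and 7 were below (11.8%). Rps15 and Rps18 were below in A-CREB under both treatments, and 2.25% of all genes were. This holds for the probe sets that stand for these genes. After saline another tested probe set of each ran the other way (highest difference 0.26 for Rps15 and 0.24 for Rps18), whereas after kainate all were below 0. Of the 21 members with several tested probe sets, these shared the sign of the genotype difference in 8 after saline, 12 after kainate and 10 over both treatments. Rps18 had 9502 and 9689.5 in A-CREB after 14 mg/kg, against 10889.9 and 10156 in wild type after 14 mg/kg, and 9126 and 9735 in A-CREB after saline, against 9984 and 10117 in wild type after saline. Its differences were -0.13 after kainate and -0.09 after saline (SE 0.14 each, limma). Rps15 differed by -0.23 after kainate and -0.12 after saline (SE 0.14 each), and by -0.17 over both (limma adjusted p = 0.9996).

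The difference between the 2 genotypes in their response to 14 mg/kg kainate, A-CREB minus wild type, had a median of -0.10 over the 46 genes. Over all genes the median was 0.01 and over the other bright genes -0.03. Of the 46 genes 39 had a value below 0, against 48.1% of all genes and 57.2% of the other bright genes. The test of that difference called 0 members and 0% of all genes, with 0 members at an unadjusted p under 0.05 (0.484% higher and 0.242% lower over all genes). Rps27 had the smallest p, with -1.41 (SE 0.67, limma adjusted p = 0.9999). The genes next in order were Rpl11 (-0.37), Rpl35 (-0.22) and Rpl37a (-0.25). For Rpl37a another tested probe set ran the other way, with a response of 0.16 in A-CREB and -0.01 in wild type. The median turned to 0.05 without the wild-type kainate array of replicate 1 and was -0.27 without that of replicate 2. With 2 arrays a group the 95% interval of a single member's difference reached 0.31 to 1.06 to either side of it (median 0.43). For the difference of responses it reached 0.44 to 1.5. These intervals are not adjusted for the number of genes tested, so differences larger than them could also fail the adjusted test.

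**Figure D4:**
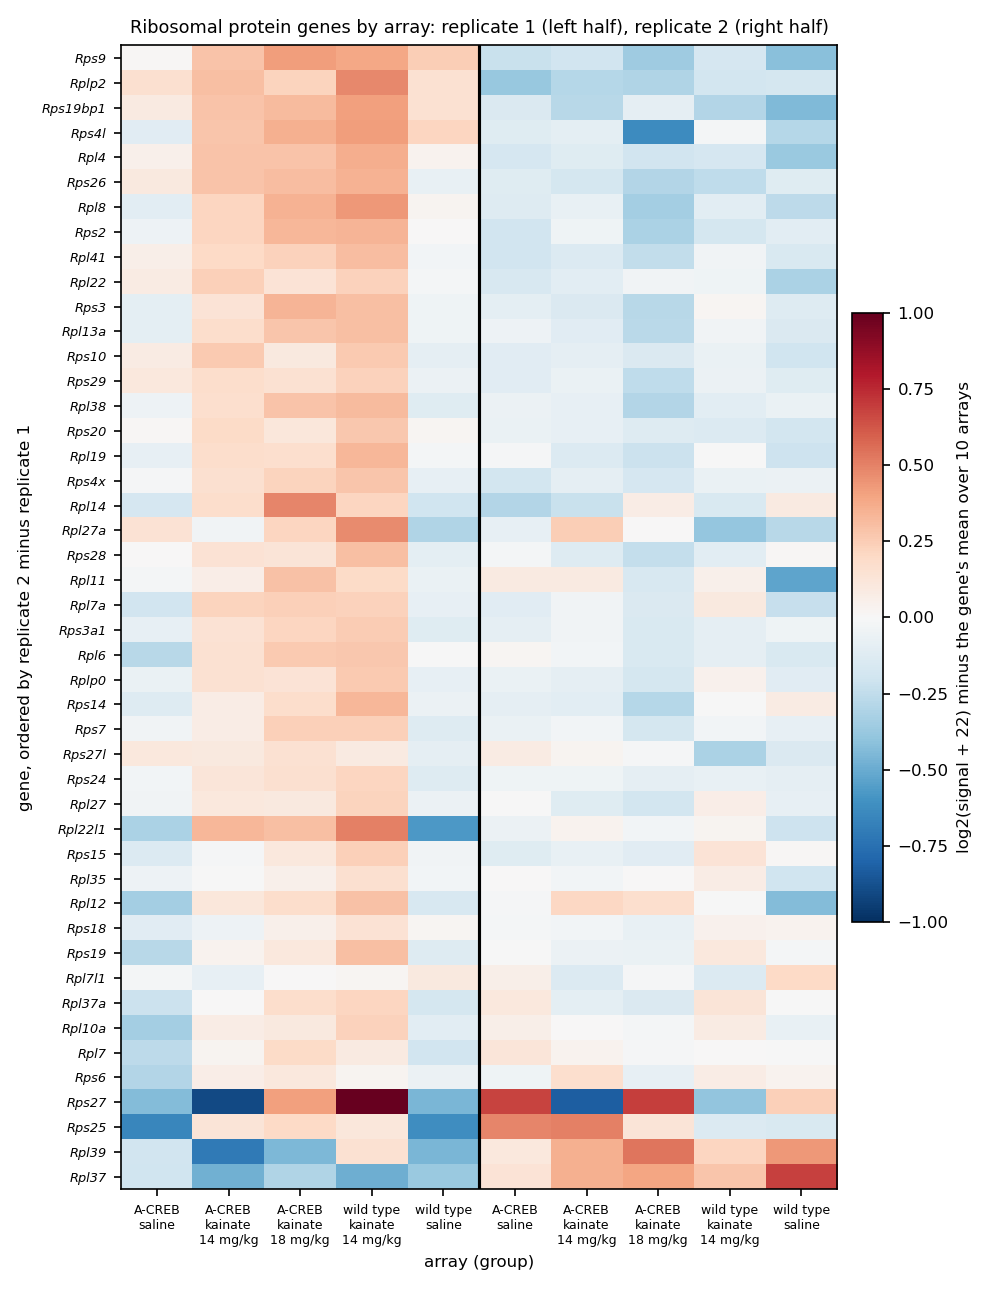
Deviation of log2(signal + 22) from each gene's 10-array mean (colour, log2) for the 46 genes (rows, ordered by replicate 2 minus replicate 1) on the 5 arrays of replicate 1 (left) and the 5 of replicate 2 (right). The 3 kainate arrays of replicate 1 are red for most genes, and Rpl37 and Rpl39 at the bottom run the other way.

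More of these genes passed the test between the replicate numbers than between any treatments or genotypes, but the errors were unlike. The median SE of a member was 0.09 between the numbers, 0.19 between 2 groups and 0.14 for kainate averaged over both genotypes. In a fit with group and replicate number, replicate 2 minus replicate 1 over 5 arrays each, the median of the 46 genes was -0.17, against 0.04 over all genes and -0.14 over the other bright genes. Limma called 17 members lower on replicate 2 (37%, against 14.3% of all genes and 35.2% of the other bright genes). It called 2 higher (20.6% of all genes and 7.67% of the other bright genes). The share of members called lower was thus near that of the other bright genes. The called members furthest below on replicate 2 were Rps9 (-0.54), Rplp2 (-0.53), Rps19bp1 (-0.50), Rps4l (-0.46) and Rpl4 (-0.41), with limma adjusted p from 0.000257 to 0.0101. Rpl4 (chr9:64173387-64178562), a large-subunit protein that lines the exit tunnel, had 14967 and 12802 in A-CREB after saline, 17542 and 13248 at 14 mg/kg and 17623 and 12620.5 at 18 mg/kg. The wild-type arrays gave 18543 and 12829 after kainate, against 14781 and 11169 after saline. The lowest array of replicate 1 was above the highest of replicate 2. For Rps9, of the small subunit, the call held for the probe set shown, whereas its other tested probe set ran the other way, by 0.66.

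The 2 members called higher on replicate 2 were Rpl37 and Rpl39, small proteins of the large subunit, Rpl39 at the mouth of the exit tunnel. Rpl37 (chr15:5116613-5119140) had 1976 and 2510.3 in A-CREB after saline, 1622 and 2911 at 14 mg/kg and 1841 and 3006 at 18 mg/kg. The wild-type arrays gave 1613 and 2769 after kainate, against 1751 and 3668 after saline. All 5 arrays of replicate 2 were above all 5 of replicate 1 (difference 0.74, SE 0.10, limma adjusted p = 0.000219). Rpl39 (chrX:37082518-37085222) had 403 and 501 in A-CREB after saline, 276 and 601 at 14 mg/kg and 335 and 682 at 18 mg/kg. In wild type it had 518 and 542 after kainate, against 333 and 633 after saline, with arrays of the 2 numbers overlapping (difference 0.66, SE 0.15, adjusted p = 0.00436). The members next in that direction, Rps25 (0.33), Rps27 (0.15) and Rps6 (0.06), were not called. The arrays of replicate 1 also differed more among themselves. The SD of the array median of the 46 genes was 0.16 over the 5 arrays of replicate 1 and 0.04 over the 5 of replicate 2.

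**Figure D5:**
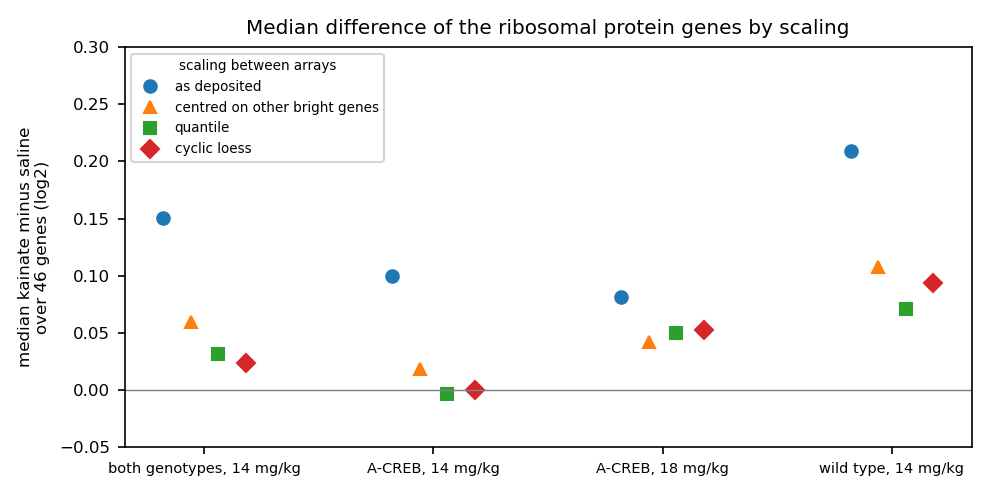
Median kainate minus saline difference (log2) of the 46 genes under 4 ways of scaling the arrays to each other, for both genotypes together, A-CREB at 14 mg/kg, A-CREB at 18 mg/kg and wild type at 14 mg/kg. The values as deposited (circles) are the highest in every comparison, and those for A-CREB at 14 mg/kg are -0.003 with quantile and 0.0002 with cyclic loess scaling.

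The size of the shift differed between ways of scaling the arrays to each other. For A-CREB at 14 mg/kg the median of the 46 genes was 0.10 as deposited, -0.003 with quantile normalization, 0.0002 with cyclic loess and 0.02 with each array centred on the other bright genes. For A-CREB at 18 mg/kg these were 0.08, 0.05, 0.05 and 0.04. In wild type they were 0.21, 0.07, 0.09 and 0.11, and over both genotypes at 14 mg/kg 0.15, 0.03, 0.02 and 0.06. The sign thus turned in A-CREB at 14 mg/kg under quantile normalization, and in the other 3 it stayed above 0.

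Genes of neighbouring processes were read in the same fits, from lists drawn up with earlier results of these data known. Of 42 ribosome assembly genes 0 passed the test at 14 mg/kg over both genotypes, and their median was -0.06. With the replicate block 1 passed, Sbds, which releases eIF6 from the large subunit (limma adjusted p = 0.0268). Without the block Sbds was also the first by p (0.47, SE 0.14, adjusted p = 0.321), followed by Fbl, the methyltransferase of ribosomal RNA (0.41), and Nop10 (0.21). Of 28 translation initiation genes 0 passed, with a median of 0.07, and Eif2s2 (0.32), Eif4a1 (0.26) and Eif3e (0.22) came first. Of 18 elongation factor and other TOP genes 0 passed, with a median of 0.07, led by the snoRNA host gene Snhg1 (0.46, adjusted p = 0.493). Of 21 genes on a list for the mTOR pathway 1 passed: Rheb, the GTPase that activates mTOR, rose by 0.66 (SE 0.12, limma adjusted p = 0.0441), by 0.63 in replicate 1 and 0.70 in replicate 2. The median of that list was -0.09. The list also holds the transcription factors Mycn (-0.41) and Myc (0.54), which came next without passing. Fau, the ubiquitin-like fusion that yields Rps30, differed by 0.36 (SE 0.22, adjusted p = 0.859).

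The 76 mitochondrial ribosomal protein genes, which serve the separate ribosome of that organelle, gave medians of -0.04 in A-CREB and 0.12 in wild type after 14 mg/kg, with 0 passing in either. The difference of the 2 responses had a median of -0.15, and 63 of the 76 genes had a value below 0, against the 48.1% of all genes given above. Over both genotypes the first by p were Mrps18c (0.36), Mrps21 (0.28) and Mrpl41 (0.28), with adjusted p from 0.547 to 0.70. After saline and kainate together, A-CREB minus wild type, the first by p among assembly genes was Nop58 (0.59, SE 0.18, adjusted p = 0.9996).

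Genes with and without a scored match to the TOP tract gave like kainate differences. At 14 mg/kg in A-CREB the median was 0.10 over the 20 genes with a match and 0.10 over the 20 without. In wild type it was 0.20 and 0.22. The score depends on the annotated start, so a gene without a match may still have a TOP tract. These medians therefore cannot tell how genes with and without such a tract differ. With and without the ETS core the medians were 0.08 and 0.10 in A-CREB and 0.20 and 0.25 in wild type, over 19 and 21 genes. The ranges of the 2 sets overlapped in each case. Where a gene had several tested probe sets, as 21 of the 46 did, these had the same sign of the kainate difference over both genotypes in 12 genes, in wild type in 15 and in A-CREB at 14 mg/kg in 12. Of the probe sets that stand for the 46 genes, 14 end in _x_at and 2 in _s_at, which mark probes that can match transcripts of other genes, so that signal from related genes and processed copies cannot be separated for them. Another 17 end in _a_at, which marks probes shared by transcripts of the same gene.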

How the data were processed

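Biotin-labelled RNA was hybridised to Affymetrix arrays of the mouse genome. What the authors deposited is an intensity, 1 linear signal for each of 45101 probe sets per array, made with MAS5 in GCOS per the submitters' processing notes (with no version stated). On these values the 2% trimmed mean of each array was 500.002 or 500.003. Signals were taken as log2(signal + 22), 22 being their 20th percentile, which lowers the fold of dim genes. The 64 control probe sets were left out, as were those below the upper 60% by mean, which left 27023 probe sets and 13219 genes with a probe set of their own. Probe sets naming several genes name none here.

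All 10 arrays were fitted by group with limma 3.58.1 in R 4.3.3 (lmFit, eBayes with intensity trend, 5 residual degrees of freedom) for 9 comparisons. Replicate 2 minus 1 came from a fit with group and number. The members, lists and tests were chosen with earlier results of these data known. Named are the 4 members with the smallest p per comparison, the 5 most different each way between replicate numbers, the stalk, variant and paralog genes, members whose arrays separate in both genotypes or treatments, members nearest the threshold and up to 3 genes of each related list. The procedure was tested on simulated data. The number of arrays limits the precision. Alternatives were other pseudocounts, filters, scalings, variance models, probe set choices, the replicate block and the omission of single arrays, and, added after seeing the data, leaving out Rps19bp1 and centring on other bright genes.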

Additional observations from a re-analysis of the deposited data

How the results depend on the processing

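With every alternative run, 0 of the 46 genes passed the threshold in each of the 9 kainate and genotype comparisons. With the replicate block their medians were as without it (0.15 for kainate at 14 mg/kg over both genotypes) and 0 were called. Same-numbered arrays of different groups deviated together (correlations over all genes 0.52 to 0.64, over the 46 genes 0.09 to 0.85), and each of the 10 arrays was closest to one of its own number, but with 2 numbers this pairs no samples. Leaving out 1 array moved the medians to between 0.043 and 0.37 (wild-type response), -0.081 and 0.28 (A-CREB at 18 mg/kg), -0.20 and 0.15 (dose), -0.24 and 0.11 (genotype after kainate) and -0.27 and 0.045 (difference of responses), since a group then rests on 1 array, assumed to vary like the others. The ends come from the kainate arrays: the genotype difference was 0.11 without the wild-type one of replicate 1 and -0.24 without that of replicate 2, and the dose difference -0.20 without the 18 mg/kg array of replicate 1 and 0.15 without that of replicate 2. Between replicate numbers 19 members were called, and 12 with quantile normalization, 12 with cyclic loess, 10 without the intensity trend, 6 without _s_at, _x_at and _a_at probe sets (19 genes) and 11 to 21 with 1 array left out (11 when it was an A-CREB 14 mg/kg array of either number). The median between the numbers, -0.17, was -0.017 with quantile normalization, -0.041 with cyclic loess and -0.032 centred on the other bright genes. For Rps9 the mean of its probe sets reversed the difference to 0.061 (limma adjusted p = 0.541), by construction, since its probe sets disagree. The cause of the other shifts was not tested. The number of arrays, and for the 12 members at a mean log2 of at most 12 the dimmer signal, limit what could be seen.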

Other observations

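Rps25, a small-subunit protein used in internal initiation, varied between arrays of 1 group. Its signals were 157 and 373 in A-CREB mice after saline, 286 and 378 at 14 mg/kg and 301 and 286 at 18 mg/kg. In wild type they were 283 and 234 after kainate, against 161 and 232 after saline. The saline arrays of replicate 1 were the lowest of the 10. Rps25 was singled out after its values were seen.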
